A study of Mus musculus with 16 samples.

Results

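Accessible chromatin was described at 9 mouse genes that each mark a stretch of the kidney's filtering unit, the nephron. They were named as segment markers, with no measured value in the rule, and are 9 of the 21938 protein-coding genes annotated in GENCODE vM21 outside the mitochondrial chromosome. Nphs1 stood for the podocyte, Slc34a1, Slc5a2 and Slc22a6 for the proximal tubule, Slc12a1 and Umod for the thick ascending limb, Slc12a3 for the distal convoluted tubule, and Scnn1g and Aqp2 for the collecting duct.

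The series held 16 ATAC-seq libraries, in which the Tn5 transposase cuts open chromatin and tags it for sequencing. Kidney, lung, heart, spleen, white and brown adipose tissue, muscle and liver of adult male C57BL/6 mice, with no transgene named in the labels, each gave 1 library from fed and 1 from fasting animals, the latter deprived of food for a day. Nuclei came from frozen tissue pooled over the animals of a state, so no library has a replicate and no spread between animals could be measured. By the study's methods all tissues of a state came from the same group of mice, so the libraries of a state are not independent of each other. All differences between the fed and the fasting library of a tissue are therefore differences between 2 libraries, without a test.

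Blood is filtered in the glomerulus across the foot processes of podocytes, and the filtrate then passes along the tubule, whose successive segments recover its contents with different transporters. Phosphate, glucose and many organic anions are handled in the proximal tubule, sodium and chloride in the thick ascending limb and distal convoluted tubule, and the last adjustment of sodium and water is made in the collecting duct under aldosterone and vasopressin. Each segment is a minor or major share of the same organ, and in a whole-kidney library fewer cells of a segment and weaker opening per cell cannot be told apart.

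Peaks were read from the lists called in each library. The strength of a peak is given as its rank, the percentile of its −log10 p among all rows of its own list, with 100 the strongest and 0 written where no peak was listed. The lists were capped by the authors and held 298996 to 299529 rows each, so a rank is relative to its own library and is not an amount of signal. A gene's promoter rank was that of the strongest peak whose summit lay within 3000 bases of any GENCODE start of the gene.

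At their own start, 5 of the 9 genes carried a peak that ranked higher in both kidney libraries than in all 14 libraries of the other tissues. The same held for 5.69% of all genes with such a peak in any library. The 5 were the proximal tubule genes Slc34a1, Slc5a2 and Slc22a6 and both thick ascending limb genes, Slc12a1 and Umod. At Scnn1g the start was open in every tissue, at Aqp2 and Slc12a3 kidney peaks at the start were weak, and at Nphs1 kidney start peaks were listed in fasting only. These values were taken within 1000 bases of the RefSeq gene start, a measure added after the data had been seen. The wider window of 3000 bases around every annotated start also took in peaks inside or beside the genes. With it 1 of the 9 genes led in kidney, against 5.84% of all genes.

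Promoter sequences are shown for 4 of the genes with kidney-leading start peaks and for Scnn1g, whose start was open in all tissues, because their base composition differs. Each run holds 270 bases of RefSeq sequence on build GRCm38.p6, written 5′ to 3′ on the strand of the gene. Of these, 250 bases lie before the start listed with the sequence. Capitals mark every CG dinucleotide, of which the Umod stretch has none.
Slc34a1, chr13:55399398-55399667, plus strand: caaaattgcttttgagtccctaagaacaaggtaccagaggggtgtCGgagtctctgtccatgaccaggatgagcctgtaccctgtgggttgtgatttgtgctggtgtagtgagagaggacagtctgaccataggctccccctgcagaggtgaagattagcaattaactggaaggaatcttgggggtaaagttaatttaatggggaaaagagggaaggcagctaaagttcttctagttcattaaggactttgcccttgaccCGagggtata
Slc22a6, chr19:8617746-8618015, plus strand: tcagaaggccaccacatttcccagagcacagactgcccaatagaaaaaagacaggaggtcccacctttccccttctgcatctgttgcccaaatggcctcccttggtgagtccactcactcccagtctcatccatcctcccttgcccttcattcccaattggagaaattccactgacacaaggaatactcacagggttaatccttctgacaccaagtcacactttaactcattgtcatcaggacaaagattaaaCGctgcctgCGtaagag
Slc12a1, chr2:125152350-125152619, plus strand: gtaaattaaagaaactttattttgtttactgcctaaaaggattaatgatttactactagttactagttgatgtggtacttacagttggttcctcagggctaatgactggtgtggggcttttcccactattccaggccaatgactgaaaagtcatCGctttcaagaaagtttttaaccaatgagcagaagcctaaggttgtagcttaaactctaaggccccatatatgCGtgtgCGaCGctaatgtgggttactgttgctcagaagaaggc
Umod, chr7:119479243-119479512, minus strand: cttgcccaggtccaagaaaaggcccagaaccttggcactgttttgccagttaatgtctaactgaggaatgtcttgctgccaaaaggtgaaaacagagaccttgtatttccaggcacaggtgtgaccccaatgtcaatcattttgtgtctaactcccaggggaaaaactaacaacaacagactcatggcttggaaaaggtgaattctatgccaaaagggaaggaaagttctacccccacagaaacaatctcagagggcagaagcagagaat
Scnn1g, chr7:121734229-121734498, plus strand: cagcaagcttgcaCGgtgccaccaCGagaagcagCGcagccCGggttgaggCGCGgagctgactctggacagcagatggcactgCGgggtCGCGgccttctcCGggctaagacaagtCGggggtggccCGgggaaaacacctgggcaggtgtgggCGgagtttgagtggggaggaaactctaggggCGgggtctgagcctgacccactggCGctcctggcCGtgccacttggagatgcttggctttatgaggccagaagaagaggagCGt
The strongest kidney promoter peak overlapped each of these 5 stretches in both states.

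Of the 9 genes, 8 had an entry in the RefSeq promoter table, and each entry spans 300 bases. Scnn1g held 18 CG dinucleotides in those 300 bases and a G+C share of 64.7%. Umod held 0, Slc34a1 and Slc22a6 held 2 each, and Slc12a1 held 5, against a median of 7 over all 32851 promoters in the table. Among the remaining genes Slc12a3 held 4, Nphs1 6 and Aqp2 8. The start open in all 16 libraries was thus the one with the most CG dinucleotides of the 8, which is a description over few genes and was not tested. The start of an entry was not always the RefSeq gene start used for ranks. For Nphs1 the entry starts at base 30460058 and the rank was taken around base 30458207. The entry's start lies outside that rank window, so its CG count belongs to another start. Smaller shifts were present at Slc34a1, Slc12a1, Slc12a3 and Scnn1g.

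Of 5 short motifs searched on both strands, TATAAA was found at Slc34a1 and Slc12a3 (13.6% of all promoters). It began 16 bases past the start at Slc34a1 and 32 bases before it at Slc12a3. AGATAA was found at Nphs1, Slc12a3 and Aqp2 (11.2% of all) and CAAAG at Nphs1, Slc34a1, Slc22a6 and Slc12a3 (53.9% of all). AGGTCA (16.3% of all) and AACCNGTT (2.09% of all) were found at none of the 8. A match says only that these letters are present. Matches and positions refer to the starts of the promoter entries, which at Nphs1, Slc34a1 and Slc12a3 are not the starts used for ranks.

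**Figure D1:**
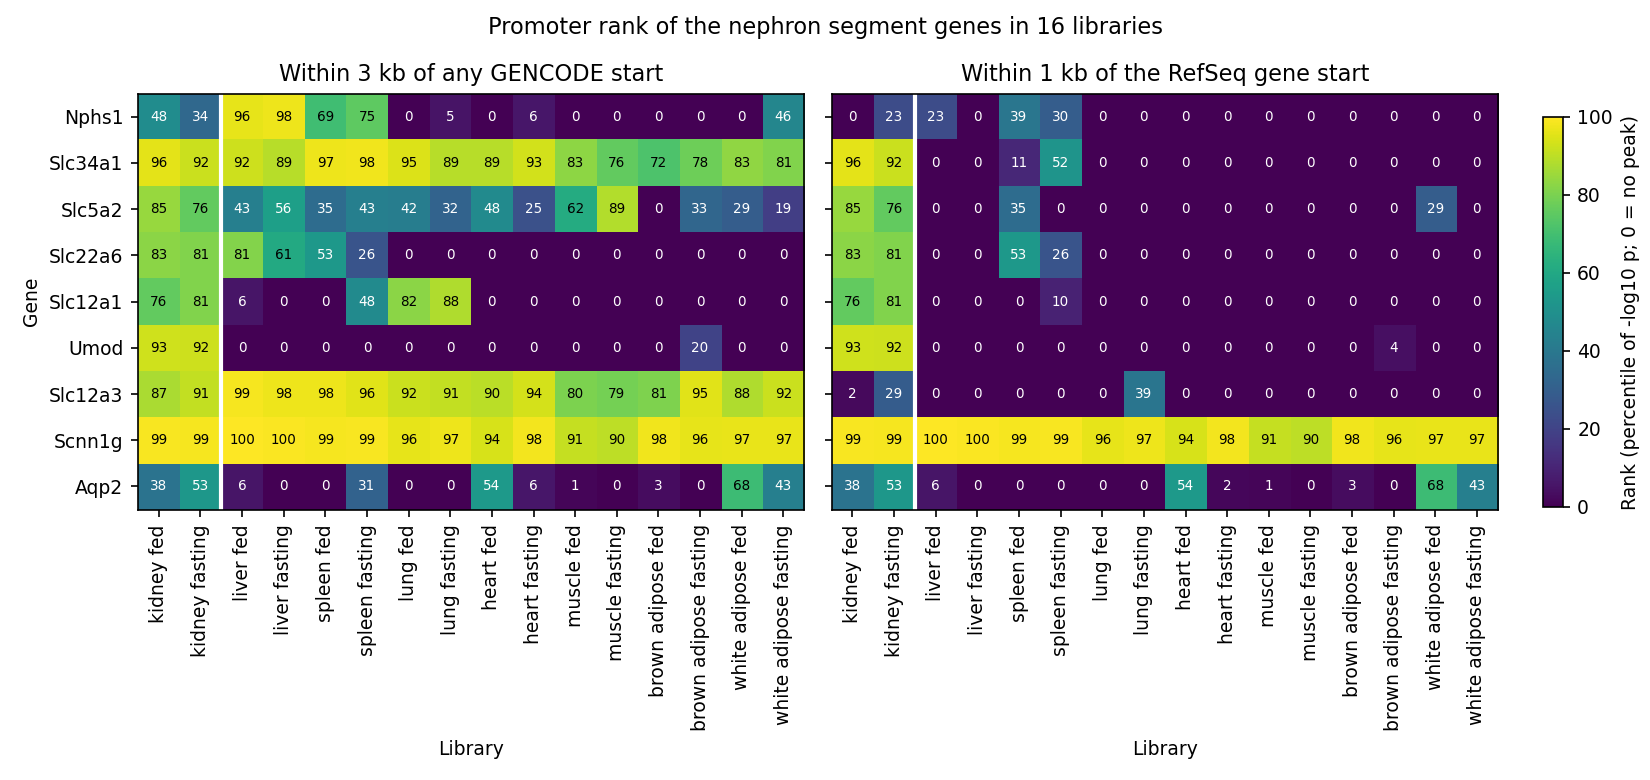
Promoter rank (percentile of −log10 p, 0 where no peak was listed) of the 9 genes in the 16 libraries, with the strongest peak within 3 kb of any GENCODE start on the left and within 1 kb of the RefSeq gene start on the right. On the left Umod alone has both kidney values above all 14 others, and on the right Slc34a1, Slc5a2, Slc22a6, Slc12a1 and Umod do.

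By the wider window, all 9 genes had a promoter peak with q under 0.01 in both kidney libraries. In the 14 other libraries between 3 and 8 of the 9 did. The kidney count is read against the 72.9% of all 21938 genes with such a peak in both kidney libraries, and against the 59.9% with one in all 16. The mean promoter rank of the 9 genes was 78.3 in fed and 77.6 in fasting kidney, and 28.2 to 58.1 in the other libraries, with both extremes in fed animals, brown adipose and liver. The median difference between kidney and the mean of the other tissues was 30.4 points over the 9 genes and 0.00823 points over all 19719 genes with a promoter peak in any library.

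Only Umod had both kidney promoter ranks above all others by this window, 1 of the 9 genes against 5.84% of all genes. By the 1 kb window at the RefSeq start, 5 of 9 did, against 5.69% of the 17356 genes with a peak there. For those 5 genes the exact permutation test, one-sided and placing the kidney label on each of the 8 tissues, gave p = 0.13, the smallest value that 8 tissues allow, so it cannot pass 0.05. For the other 4 genes the same exact permutation test at the RefSeq start gave p = 0.25 (Nphs1, Slc12a3 and Aqp2) and p = 0.375 (Scnn1g).

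Among podocyte genes, Nphs1 encodes nephrin, the adhesion protein of the slit diaphragm between foot processes. It lies at chr7:30458315-30487223 on the plus strand, with the related gene Kirrel2 just upstream and Prodh2 downstream. Its strongest promoter peak in kidney, chr7:30484345-30484519, ranked 48.5 in fed and 33.8 in fasting, but lay in an intron about 26 kb into the gene, close to the start of an annotated internal transcript. White adipose fasting was the one other library with a row there, at 45.8.

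The stronger peaks of other tissues at Nphs1 were elsewhere. Liver ranked 96.1 in fed and 97.6 in fasting at chr7:30475025-30475386, again inside the gene, where kidney ranked 41.4 and 27.3. Spleen ranked 69.5 and 75.1 at a peak 1824 and 1863 bases before the first start, on the side of Kirrel2. Within 1 kb of the RefSeq start kidney had no listed peak in fed and one of rank 23.4 in fasting, while spleen ranked 39.4 and 29.6 and fed liver 23.4. Kidney thus did not stand above the other tissues at nephrin by either window. The mean difference from them was 12.9 points, and −3.60 with starts of protein-coding transcripts alone.

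In none of the 4 other podocyte genes were both kidney promoter ranks above all other libraries. For this list and those below, the shares of all genes meeting this rule were 5.84% by the wider window and 5.69% at the RefSeq start. The median difference of the 4 podocyte genes from the other tissues was −7.23 points. Synpo, which encodes the actin-binding protein synaptopodin of the foot processes, had the highest mean kidney rank (83.1) and the transcription factor gene Tcf21 the lowest (33.9). Tcf21 ranked 26.4 in fed and 41.4 in fasting kidney, and Wt1, another transcription factor gene of podocytes, 69.3 and 81.4.

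In the proximal tubule, Slc34a1 encodes NaPi-IIa, the sodium phosphate cotransporter of the brush border. Its kidney peak at chr13:55399389-55400003 ranked 95.9 in fed and 92.0 in fasting. Of the other 14 libraries, spleen fed (11.2) and spleen fasting (51.9) were the ones with a row within 1 kb of the RefSeq start. By the wider window, however, all 14 others ranked 72.03 to 97.7, with a median of 89.2, through a different peak at about 7.4 kb past the first start, for instance chr13:55405496-55405706 in fed liver. Kidney listed that intronic site too, at 79.1 and 84.0, so it was shared by all 16 libraries while the start was not. By the wider window kidney was 7.04 points above the mean of the other tissues, and the difference was −16.4 points when ranks were taken on fold enrichment.

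Slc5a2 encodes SGLT2, the glucose cotransporter of the early proximal tubule and the target of the gliflozin drugs. The strongest kidney peak was in the first part of the gene, chr7:128266111-128266501, at 84.6 in fed and 76.1 in fasting. Within 1 kb of the RefSeq start the other libraries with a peak were spleen fed (35.5) and white adipose fed (29.4). The high value of fasting muscle in the wider window, 88.6, came from chr7:128267859-128268289, 2383 bases past the first start. There fed muscle ranked 61.7.

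Slc22a6 encodes OAT1, the basolateral carrier that takes up organic anions such as p-aminohippurate. Kidney ranked 82.7 in fed and 80.9 in fasting, at chr19:8617789-8618628 over the start. Spleen had a weaker row at the same place, at 53.3 in fed and 26.1 in fasting, each resting on few tags (15 and 13 at the summit against 168 and 144 in kidney). Liver, at 81.4 and 60.7 by the wider window, was listed 1586 and 1484 bases before the start and had no peak within 1 kb. The remaining 10 libraries listed nothing in either window.

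The 8 other proximal tubule genes gave the largest share of kidney-leading promoters among the lists. In 6 of 8 both kidney promoter ranks were above all 14 others by the wider window, and again in 6 of 8 at the RefSeq start. Those 6, Lrp2 and Cubn (the endocytic receptors megalin and cubilin), Slc34a3, Slc5a1, Slc7a13 and the water channel Aqp1, were the same genes by both windows. Their list's median difference from other tissues was 65.6 points. By the wider window Aqp1 had the highest mean kidney rank (97.1) and Slc22a8, the OAT3 gene next to Slc22a6, the lowest (78.0). Neither Slc22a8 nor Slc4a4 had a listed kidney peak at the RefSeq start in either state. Cubn at its RefSeq start ranked 94.8 and 95.3 in kidney and was listed in none of the 14 others, as was Slc34a3 (92.0 and 90.7). None of the 8 genes differed by 10 points between the states.

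In the thick ascending limb, Slc12a1 encodes NKCC2, the cotransporter blocked by loop diuretics. Kidney ranked 75.9 in fed and 81.2 in fasting at chr2:125152365-125152747, over the start. Fasting spleen was the one other library with a row there, at 9.65. Lung ranked 82.5 and 88.0 by the wider window, both above the kidney values, but its summit was 1919 and 1922 bases past the first start, as at chr2:125154173-125155268 in fed lung. Lung had no peak within 1 kb of the RefSeq start.

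Umod encodes uromodulin, the most abundant protein of normal urine. Kidney ranked 92.8 in fed and 92.3 in fasting at a peak 234 and 238 bases before the start, chr7:119479021-119479774 in fed. In the 13 libraries other than fasting brown adipose no promoter peak was listed by the wider window. Fasting brown adipose had 20.01 at a site 2170 bases before the start and 4.18 within 1 kb. The kidney minus other difference, 91.1 points, was the largest of the 9 genes.

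Of the 5 other thick ascending limb genes, 1 had both kidney ranks above all others by the wider window and 2 at the RefSeq start. The 1 was Cldn16, a claudin of the magnesium and calcium pathway, and at the RefSeq start it was joined by the potassium channel gene Kcnj1. By the wider window Kcnj1 had the highest mean kidney rank (89.2) and Cldn16 the lowest (58.1). Cldn16 moved from 45.2 in fed to 71.0 in fasting, the one gene of this list to differ by 10 points or more by that window. At the RefSeq start Kcnj1 did as well, at 58.0 in fed and 77.1 in fasting.

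Slc12a3, of the distal convoluted tubule, encodes NCC, the thiazide-sensitive cotransporter. By the wider window it was open in all 16 libraries, at 87.4 and 90.8 in kidney and 79.2 to 98.6 elsewhere, and kidney was the sixth of the 8 tissues in the order of mean rank. The strongest kidney peak was about 25 kb into the gene, chr8:94354002-94355037, overlapped in 12 of the 14 others. At the start itself kidney listed a weak peak, chr8:94328897-94329313, at 2.35 in fed and 28.9 in fasting, which no other library overlapped. Fasting lung had a separate peak within 1 kb, at 38.7. The difference between kidney and the other tissues was −1.71 points by the wider window and 12.9 at the RefSeq start.

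Among 6 further genes of the distal convoluted and connecting tubule, the calcium channel gene Trpv5 was the 1 with both kidney ranks above all others, at 78.8 in fed and 76.1 in fasting against at most 35.5. Wnk4, a kinase that regulates the thiazide-sensitive cotransporter, had the highest mean kidney rank (98.6) and was open in all tissues. Pvalb had the lowest (13.2), at 26.4 in fed and not listed in fasting. The magnesium channel gene Trpm6 ranked 57.7 and 70.3 by the wider window and had no listed kidney peak at the RefSeq start.

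In the collecting duct, Scnn1g encodes the gamma subunit of the epithelial sodium channel. Its start peak ranked 99.0 in fed and 98.6 in fasting kidney and 89.96 to 99.9 in the others, with liver highest and muscle lowest. The summit lay 206 to 226 bases before the start in all 16 libraries, at chr7:121734132-121734778 in fed kidney. This was the strongest kidney promoter peak of the 9 genes, and it did not separate kidney from other tissues.

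Aqp2 encodes the vasopressin-regulated water channel of principal cells. Kidney ranked 38.2 in fed and 53.0 in fasting at the start, chr15:99578908-99579389 in fasting. Fed white adipose (68.5), fed heart (54.1) and fasting white adipose (43.2) were within or above this range at the same site, and the remaining 11 others were at most 5.51 within 1 kb of the start. A second kidney peak within the gene, chr15:99583615-99584274, ranked 78.9 and 80.9 and was overlapped in all 14 others.

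The 7 other principal cell genes had both kidney ranks above all others in 2, Aqp3 and Fxyd4, by both windows. Aqp3, the basolateral water channel, had the highest mean kidney rank (92.2), and Avpr2, the vasopressin receptor, the lowest (57.1). Avpr2 ranked 47.9 in fed and 66.4 in fasting. Of 5 genes of intercalated cells, which handle acid and base, 1 (the anion exchanger gene Slc4a1) met the rule by the wider window and 0 at the RefSeq start. Slc26a4, or pendrin, had the highest mean kidney rank (75.8) and Foxi1, the transcription factor of these cells, the lowest (28.3). Foxi1 moved from 0.196 in fed to 56.4 in fasting and the proton pump gene Atp6v0d2 from 24.7 to 47.4.

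The tissue label was checked with the same lists. Of 4 nephron transcription factor genes (Pax2, Pax8, Hnf4a and Tfap2b), 4 had a promoter peak in both kidney libraries by the wider window, against the 72.9% of all genes. At their RefSeq starts 3 of the 4 were listed, Hnf4a weakly (6.16 and 18.0) and Tfap2b in neither kidney library. Of the 20828 genes with a RefSeq start, 13818 had a kidney peak there, so presence alone separates little. Both kidney ranks were above all 14 others in 2 of the 4, Pax2 and Pax8, by both windows, against 5.84% and 5.69% of all genes. None of 4 immune genes had a promoter peak in both kidney libraries by either window. Of 6 genes of other organs, 3 had one by the wider window, Ckm of muscle (96.5 and 92.8), Myh6 of heart (74.5 and 80.2) and Sftpc of lung (83.8 and 81.7), and 0 were listed in both at RefSeq starts, where Alb was listed in fasting alone (45.6). Of 3 stromal and mesangial genes, 2 had one by the wider window and 1 at the RefSeq start. The 4 endothelial genes were listed in kidney by the wider window at ranks from 3.94 (Pecam1, fed) to 64.8 (Kdr, fasting). Their median difference from the other tissues was −28.9 points.

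**Figure D2:**
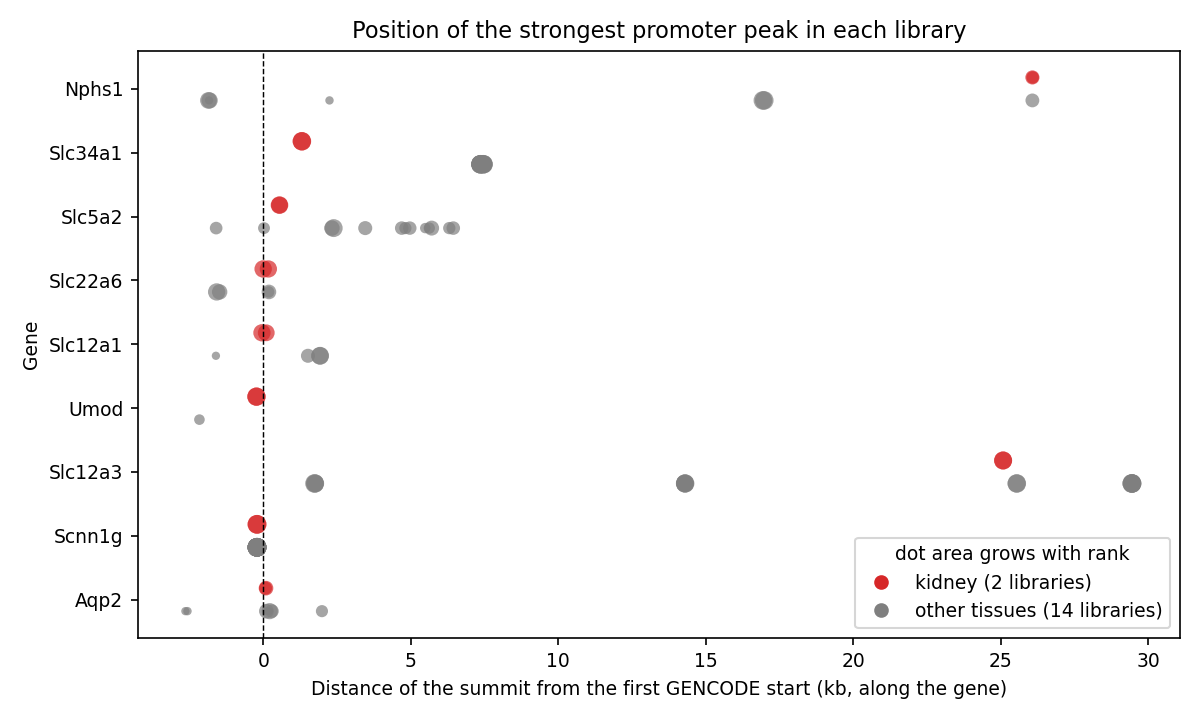
Distance of the strongest promoter peak from the first GENCODE start (kb, along the gene) in each library, with kidney in red, the other tissues in grey and dot area growing with rank. Kidney dots lie near 0 for all genes but Nphs1 and Slc12a3, at about 26 and 25 kb, while those of other tissues at Slc34a1 lie near 7.4 kb.

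Beyond the starts, the gene body was extended by 10000 bases on both sides and peaks with q under 0.01 were counted by summit. Kidney listed 187 such peaks in fed and 195 in fasting over the 9 windows, and the other libraries 45 to 101. Both kidney counts were above all 14 others in 5 of 9 genes, against 9.03% of all 20551 genes with a window peak. These were Slc34a1, Slc22a6, Slc12a1, Umod and Slc12a3. A list can hold several summits in 1 interval, and with such rows taken as 1 region 3 genes met the rule, Slc22a6, Slc12a1 and Umod. Slc34a1 then had 13 and 14 regions in kidney against 14 in fed spleen, and Slc12a3 had 15 and 18 against 20. For this count of regions the share over all genes was not calculated.

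Umod had 19 peaks in fed and 21 in fasting kidney against 0 to 2 elsewhere. Slc34a1 had 36 and 37, against 6 to 17, and Slc22a6 had 27 and 26, against 0 to 12, the highest being fasting liver. At Slc12a1 there were 26 and 36, against 2 to 10. Slc12a3 had 42 and 39 against 19 to 37. For Slc5a2, at 11 and 8, fed lung reached 11, and for Nphs1, at 13 and 17, fasting liver reached 17. The collecting duct genes were poorer in kidney than in lung, with 4 and 5 at Scnn1g against 16 in fed lung and 9 and 6 at Aqp2 against 17 in fasting lung.

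**Figure D3:**
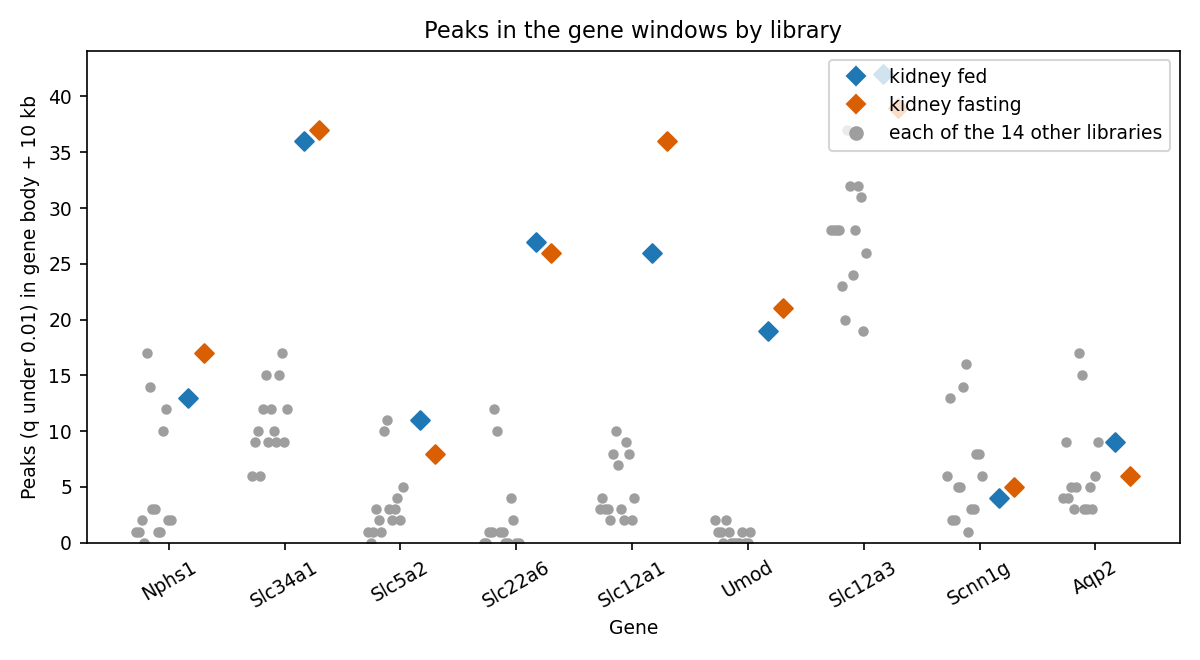
Number of peaks with q under 0.01 in the gene body plus 10 kb on both sides, for each gene and library, with kidney as diamonds and each of the 14 other libraries as a grey dot. Kidney lies apart at Slc34a1, Slc22a6, Slc12a1 and Umod, narrowly above at Slc12a3, and within the range of the others elsewhere, and with rows of 1 interval taken as 1 region it leads at Slc22a6, Slc12a1 and Umod alone.

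Merging the peaks of both kidney libraries gave 116 intervals in the 9 windows, of which 73 were listed in both states. Among these 73, 22 (30.1%) were overlapped by no row of the 14 other libraries, against 16.3% of the 126970 kidney intervals of both states over the whole genome. They were spread unevenly, with 7 at Slc12a1, 5 at Umod, 3 each at Slc34a1, Slc22a6 and Slc12a3, 1 at Slc5a2 and 0 at Nphs1, Scnn1g and Aqp2. At the other extreme 9 intervals were overlapped in all 14 others, 4 of them at Slc12a3.

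The kidney-only intervals were of middling strength, with best ranks of 2.66 to 67.5 and a median of 47.4. The strongest, chr7:119484182-119484721, lay 5170 bases before the first start of Umod, at 43.1 in fed and 67.5 in fasting. Next to it in strength was chr2:125151617-125152238, 658 bases before that of Slc12a1, at 64.7 and 46.4. Slc22a6 had one 4126 bases before its start, chr19:8613747-8613967, at 49.3 and 62.8. In Slc5a2 it was chr7:128267408-128267710, in an intron, at 60.2 and 56.1. Of the 22 intervals, 14 were more than 3000 bases from any start of the gene. The strongest kidney interval of the Slc34a1 window, chr13:55391419-55392236 and 6409 bases before the first start, ranked 97.1 and 97.2 and was not kidney-only, since 6 other libraries overlapped it, fed liver at 99.5.

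**Figure D4:**
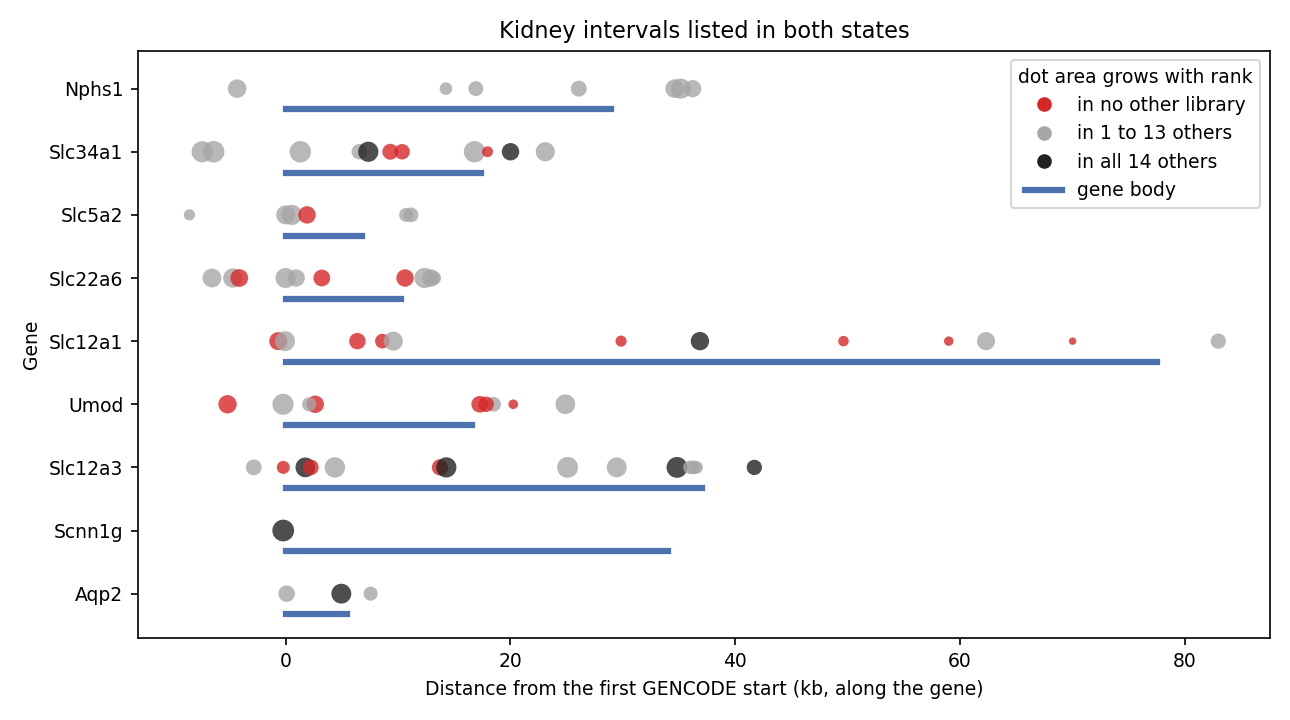
Kidney intervals listed in both states along the 9 gene windows, by distance from the first GENCODE start (kb), with red for intervals in no other library, grey for 1 to 13 others, black for all 14 and dot area growing with rank. Blue bars are gene bodies, and red dots cluster at Slc12a1 (7) and Umod (5).

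Fed and fasting kidney could be compared on nearly equal ground, since the background at summits was 4.67 and 4.64 tags and the strongest promoter peak was the same one in both for all 9 genes. The mean promoter rank of the 9 genes differed by −0.68 points, fasting minus fed, within a range of −5.86 to 7.64 points over the 8 tissues. Its sign depended on the peaks admitted, at 3.55 with starts of protein-coding transcripts, 6.13 within 1 kb of the RefSeq start and −9.55 with the 50000 strongest rows of each list. In that last setting the Slc5a2 peak was kept in fed kidney (84.6) but cut in fasting kidney (76.1) and counted there as 0. A step of 10 points or more upward was seen in 1 of 9 genes (Aqp2, 14.8), against 4.94% of the 16497 genes with a kidney promoter peak. One of 9 moved by as much downward (Nphs1, −14.7), against 4.53%. Both are the weakest kidney peaks of the 9, with 36 and 41 summit tags at Aqp2 and 32 and 22 at Nphs1. Within 1 kb of the RefSeq start 3 of 9 genes were higher by 10 points or more in fasting (6.01% of 13818 genes), Slc12a3 by 26.6, Nphs1 by 23.4 from no listed peak in fed, and Aqp2 by 14.8, and 0 were lower (4.45%). At Nphs1 the 2 windows thus went opposite ways.

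Summit tags, solved from the fold and p of each peak, allowed the counting error to be stated. Slc34a1 had 335 tags in fed and 239 in fasting kidney, a ratio per background tag of 0.718 (95% interval 0.606 to 0.85). Slc5a2 had 134 and 83, a ratio of 0.623 (0.468 to 0.826). These were the 2 of 9 genes whose interval lay below 1, as did that of 8.48% of the 12884 genes compared in the same way. None of the 9 lay above 1, against 3.83% of genes. The interval covers counting error between 2 libraries only, and not the spread between animals. The ratio takes the background of each library and not the local one. Fold over local background went from 7.45 in fed to 6.71 in fasting at Slc34a1, and from 7.95 to 6.95 at Slc5a2. These are smaller relative falls than those in tags.

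The third proximal tubule gene, Slc22a6, had 168 and 144 tags and a ratio of 0.863 (0.686 to 1.08). Downstream, the ratio was 1.12 at Slc12a1 (0.818 to 1.54), 0.956 at Umod (0.779 to 1.17) and 1.196 at Slc12a3 (0.99 to 1.45). In the collecting duct it was 0.911 at Scnn1g (0.765 to 1.09) and 1.15 at Aqp2 (0.715 to 1.85). At Nphs1 it was 0.692 (0.383 to 1.23). For these 7 genes a change was not detectable at this depth. Over all genes compared the median ratio was 0.969 and the 5th and 95th percentiles were 0.723 and 1.25.

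**Figure D5:**
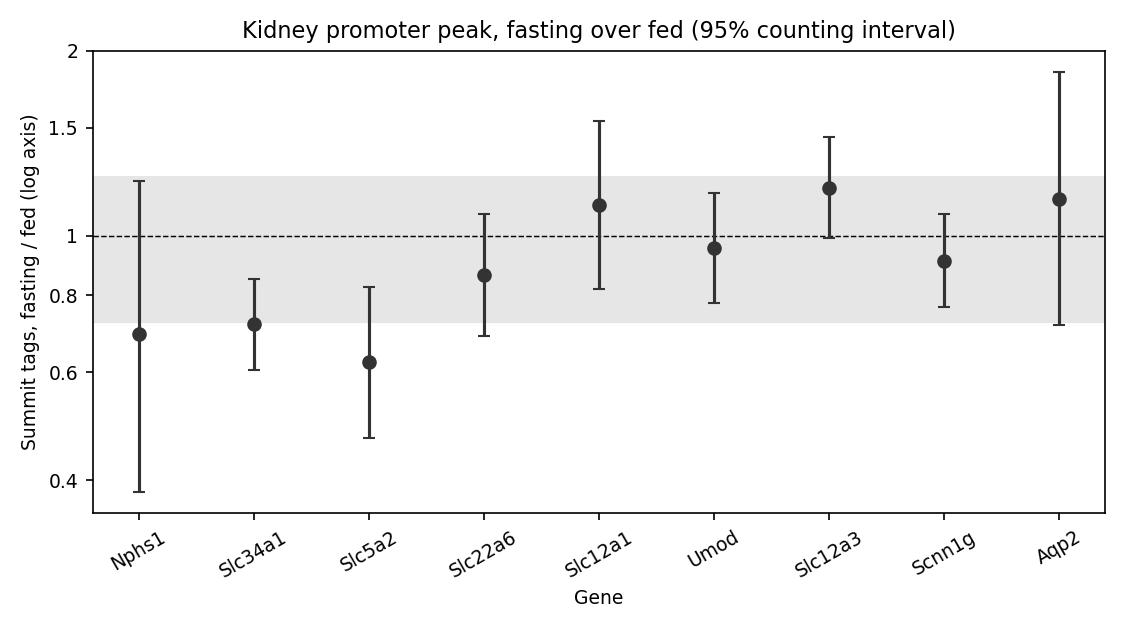
Ratio of summit tags at the strongest kidney promoter peak, fasting over fed and per library background tag, on a log axis. Bars give the 95% counting interval and grey the 5th to 95th percentile of all genes compared. Slc34a1 (0.718) and Slc5a2 (0.623) have bars wholly below 1.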

How the data were processed

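ATAC-seq peak lists of 16 mouse libraries were used, 1 for each of 8 tissues and 2 states. Per the labels, the study's methods and the naming of the deposited lists, the authors aligned reads with Bowtie2 to GRCm38, removed duplicates and mitochondrial reads, shifted Tn5 cuts, called peaks with MACS2, capped each list at its strongest rows and removed blacklisted ones. The deposited lists give, for each summit, the fold enrichment (a ratio over local background), −log10 p and −log10 q. Total read depth is not given in them. Library background, the lowest value common among sampled rows of a list, ranged from 2.8 to 12.77 tags. Tool versions are not given in the sources used here.

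Ranks were percentiles of −log10 p over all deposited rows of a list. Starts came from GENCODE vM21 (132629 starts), RefSeq gene starts for 20828 genes and promoter sequences from RefSeq. Tags were solved from fold, (tags + 1)/(background + 1), and the Poisson tail p, with a tolerance of 0.001 or 2e-05 of −log10 p, which 93.2% to 99.9% of sampled rows met. Intervals at 95% are exact binomial. Calculations used Python 3.11.15, numpy 2.4.6, pandas 2.3.3 and scipy 1.17.1 and were tested on simulated data.

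The 9 genes, the marker lists and the tests were chosen with earlier results of these data known. Some genes of the lists are not reported here. Named genes were the 9 and, in each nephron segment list, those with the highest and lowest mean kidney rank and those whose kidney states differed by 10 points; others named in the text, such as list members that met a rule, were chosen after their values were seen. Window sizes, starts, the ranked column, the counted rows and the tissues compared were varied.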

Additional observations from a re-analysis of the deposited data

Results flagged for a closer look

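The fasting minus fed difference in promoter rank went in opposite directions in kidney and in other tissues at 2 of the 9 genes, by 10 points or more on each side. With 1 library per tissue and state, the difference was not tested. At Nphs1 it was −14.7 points in kidney, at a peak about 26 kb into the gene, and 45.8 in white adipose, where fed animals had no listed peak and fasting animals had 22 summit tags. Within 1 kb of the RefSeq start of Nphs1 the kidney difference was 23.4 points, from no listed peak in fed. At Aqp2 it was 14.8 in kidney, −25.3 in white adipose and −48.0 in heart, while spleen moved the same way as kidney, by 31.3. The heart values rested on different peaks with few summit tags. These were 18 in fed, 101 bases past the start, and 15 in fasting, 2575 bases before it. The spleen value was 1 row of 14 tags, 1985 bases past the start, with no listed peak in fed. White adipose had 79 tags in fed and 22 in fasting, and kidney 36 and 41. White adipose had a library background of 10.02 tags in fed and 5.87 in fasting, whose part in the result was not tested.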

How the results depend on the processing

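The number of genes with both kidney promoter ranks above all other libraries, 1 by the main window, was the value that moved most. It was 4 with a 1 kb window, 2 with protein-coding transcript starts, 2 each without liver, muscle or lung, 5 at the RefSeq start, 3 each in fed libraries alone (Slc5a2, Slc22a6 and Umod) and in fasting libraries alone (Slc22a6, Umod and Aqp2), and 5 at the place of the strongest kidney peak, which favours kidney by construction. The RefSeq start, the single states and the place of the kidney peak were chosen after seeing the data. It stayed at 1 in the other 8 settings. The mean kidney minus other difference, 34.6 points, was 50.3 with a 1 kb window, 51.6 at the RefSeq start and 17.9 with the 50000 strongest rows, and 27.7 to 42.3 otherwise. With the 50000 strongest rows 4 of 9 genes kept a promoter peak in both kidney libraries, and 2 (Slc34a1 and Umod) had more window peaks in kidney than anywhere else. The mean fasting minus fed difference in kidney was then −9.55 points, against −0.68. This value includes Slc5a2, whose peak was kept in fed kidney (84.6) but cut in fasting kidney (76.1) and counted as 0. At the RefSeq start the mean fasting minus fed difference in kidney was 6.13. With rows of 1 interval taken as 1 region the window count was 3, without Slc34a1 and Slc12a3. Direction turned in 4 of 45 settings of single genes: Slc12a3 was 20.9 with a 1 kb window and 12.9 at the RefSeq start, against −1.71; Nphs1 was −3.60 with protein-coding transcript starts, against 12.9; and Slc34a1 was −16.4 by fold enrichment, against 7.04. The exact permutation p of single genes ranged from 0.13 to 1.0 over those settings. Other starts, windows or row limits admit other peaks by construction. The remaining causes were not tested. A 1 kb window does not apply to the count over gene windows and was not run there. No paired analysis was possible because each group is 1 library and no label pairs libraries across tissues. The exact test averaged both states of a tissue.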

Other observations

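Spleen was the other tissue with the most listed rows at the RefSeq starts. Without Scnn1g, 4 of the remaining 8 genes were listed in fed and 4 in fasting spleen, against 7 and 8 in kidney and 0 to 2 in the other 12 libraries. The spleen rows ranked at most 53.3 (Slc22a6, fed). For these counts the share over all genes in each library was not calculated, so they do not show a likeness of spleen to kidney. Spleen lists held 231705 separate intervals in fed and 225899 in fasting, against 165716 and 168856 in kidney. Liver lists held 239804 and 217821, with 2 and 0 of the 8 genes listed. The part of list make-up in the counts was not tested.

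Genes whose promoter rank by the wider window followed each of the 9 most closely over the 16 libraries were listed by Pearson's r. This is a description, and that rank can rest on different peaks in different tissues, as at Nphs1, Slc34a1 and Slc5a2. The fed and fasting libraries of a tissue are not independent points. For Umod the closest genes were Vmn1r219 (0.989), Gm4450 (0.987) and Slc34a3 (0.987), the last a phosphate cotransporter gene of the proximal tubule. For Slc22a6 they were Bhmt2 and Dmgdh (0.975 each) and Hnf4a (0.970). For Slc12a1 they were Tmem213 (0.950), Tdrd1 (0.940) and Spag16 (0.938), and for Slc5a2 Ush1c (0.852), Mrln (0.851) and Sln (0.838), the last 2 being muscle genes. Nphs1 was closest to Gm10310 (0.954), F5 (0.939) and Hsd17b13 (0.937), Slc34a1 to Rab27a (0.952), B3gnt7 (0.926) and Mmp9 (0.925), and Slc12a3 to Hyal3 and Ifrd2 (0.886 each) and Fmo5 (0.880). Scnn1g was closest to Cpq (0.943), Eif2ak2 (0.942) and BC034090 (0.941), and Aqp2 to Gpr158 (0.873), Asic2 (0.846) and Guca2b (0.822). Between the 9 genes themselves r ran from −0.31 (Slc5a2 and Scnn1g) to 0.76 (Nphs1 and Slc22a6).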
